A study of Mus musculus with 6 samples.

Results

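Genes of type 2 inflammation were examined in lung RNA of adult mice that carry a deletion at Zpbp2 and of control mice. The set was chosen by gene symbol in the deposited count table. It holds 10 of the 41388 genes of the table, all protein-coding: the alarmins Il33, Tslp and Il25, the receptor genes Il1rl1, Il4ra and Il13ra1, the cytokines Il4 and Il13, and the effectors Chia1 and Retnla. Each symbol matched 1 row. The mutant animals (KO) have the C57BL/6J background and lack exons 1 to 3 of Zpbp2 and parts of its promoter and enhancer regions, in all tissues. Control C57BL/6J mice (WT) were raised in the same colony, and the sources used here do not say whether they were littermates. The mice were not treated or challenged with allergen, as far as the labels and methods say. Lungs were taken at ZT7, 7 h into the light phase, from 3 WT and 3 KO mice, and each gave 1 RNA-seq library (WT1 to WT3 and KO1 to KO3). The region around Zpbp2 is orthologous to a human asthma locus, and the comparison asks whether genes of allergic airway inflammation differ between the genotypes in resting lung.

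Type 2 inflammation starts at the epithelium and other barrier cells, which release the alarmins IL-33, TSLP and IL-25 on injury or contact with allergen. IL-33 binds ST2, the product of Il1rl1, on mast cells, type 2 innate lymphoid cells (ILC2) and regulatory T cells, and these cells and T helper cells then make IL-4 and IL-13. Both cytokines signal through the IL-4 receptor alpha chain (Il4ra), which pairs with Il13ra1 or with the common gamma chain and activates STAT6. In mouse lung and its macrophages this pathway induces Retnla, a resistin-like secreted protein, and Chia1, the acidic chitinase of airway and alveolar epithelium. Chia1 is also made in the resting lung.

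RefSeq start-site windows of build GRCm38.p6 were available for 8 of the 10 members, and 3 are shown because the results below turn on their genes or because the gene is a textbook STAT6 target. Il1rl1 has start sites some distance apart, which counts per gene cannot separate, so both of its windows are given. Each is the plus strand, 5′ to 3′, up to the base before the next annotated exon. The downstream Il1rl1 window lies inside the annotated gene, which begins at 40429570. The capitals mark GATAA or TTATC, the core letters of GATA factor sites on either strand, in the Il1rl1 windows, and the letters TTC and GAA set 4 bases apart, the palindrome of a STAT6 site, in the Retnla window.
Il1rl1 upstream start, chr1:40429320-40429569: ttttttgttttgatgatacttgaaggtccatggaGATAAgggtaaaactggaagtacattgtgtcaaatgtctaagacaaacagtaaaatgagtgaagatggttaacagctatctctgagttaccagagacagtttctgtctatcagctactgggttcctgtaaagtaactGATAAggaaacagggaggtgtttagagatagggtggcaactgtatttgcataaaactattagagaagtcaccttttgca
Il1rl1 downstream start, chr1:40439379-40439626: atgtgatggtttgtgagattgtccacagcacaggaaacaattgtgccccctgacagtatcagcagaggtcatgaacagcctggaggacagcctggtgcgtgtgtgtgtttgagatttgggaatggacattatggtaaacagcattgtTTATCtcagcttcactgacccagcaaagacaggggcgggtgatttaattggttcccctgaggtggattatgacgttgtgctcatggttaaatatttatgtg
Retnla, chr16:48842359-48842550: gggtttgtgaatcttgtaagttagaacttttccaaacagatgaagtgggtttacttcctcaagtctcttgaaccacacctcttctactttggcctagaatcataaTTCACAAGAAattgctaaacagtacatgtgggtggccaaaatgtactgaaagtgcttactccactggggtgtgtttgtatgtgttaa
The upstream Il1rl1 window holds 2 GATA cores and the downstream window 1, and 22.6% of the 32851 mouse windows of 250 bases hold at least 1. Among the other members, Il33, Il13 and Chia1 have 1 GATA core per gene over 250 bases. The STAT6 letters stand once in the Retnla window, and 4.6% of windows of that length hold them. Over 250 bases the windows of Il33 and Il4 hold them once as well. Such a match describes the letters only.

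The 6 libraries had 59134950 to 71354388 counts. Zpbp2 had 20, 15 and 7 counts in WT1 to WT3 and 1, 0 and 0 in KO1 to KO3, and its log2 fold change was -4.80 (edgeR adjusted p 0.0653). Lung markers were abundant in every library, with Sftpc of alveolar type 2 cells at 12103 CPM (counts scaled to library size) or more. KO2 and KO3, labelled as different mice, differed by close to counting noise (1.72 to 1.94 times the counting variance below 20000 counts), whereas all other pairs of a genotype differed by more at high counts. They were summed to 1 sample, so tests compare 3 WT with 2 KO samples. WT3 and KO1 stood apart through squamous epithelium transcripts, whose 15 listed genes summed to 4990.4 and 9484 CPM there and to at most 59.3 CPM elsewhere.

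Levels of the members were first ordered per kb of exon, which makes genes of unequal length comparable. Retnla was highest at 117 CPM per kb in the mean over samples, followed by Chia1 at 36.5, Il33 at 26.4, Il4ra at 25.9 and Il13ra1 at 13.9 CPM per kb. Tslp at 3.61, Il1rl1 at 1.05 and Il4 at 0.141 CPM per kb came next, and Il13 and Il25 were at 0.0206 and 0.0122 CPM per kb. The 6 library values of Il33 (24.2 to 28.03 CPM per kb) and Il4ra (24.3 to 27.5) lay within each other's spread, so these neighbours cannot be ordered, and neither can Il13 and Il25. The remaining neighbours did not overlap in any library. In resting lung the effectors, the alarmin Il33 and the receptor chains for IL-4 and IL-13 were thus the abundant transcripts, and the cytokines were near the limit of detection.

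**Figure D1:**
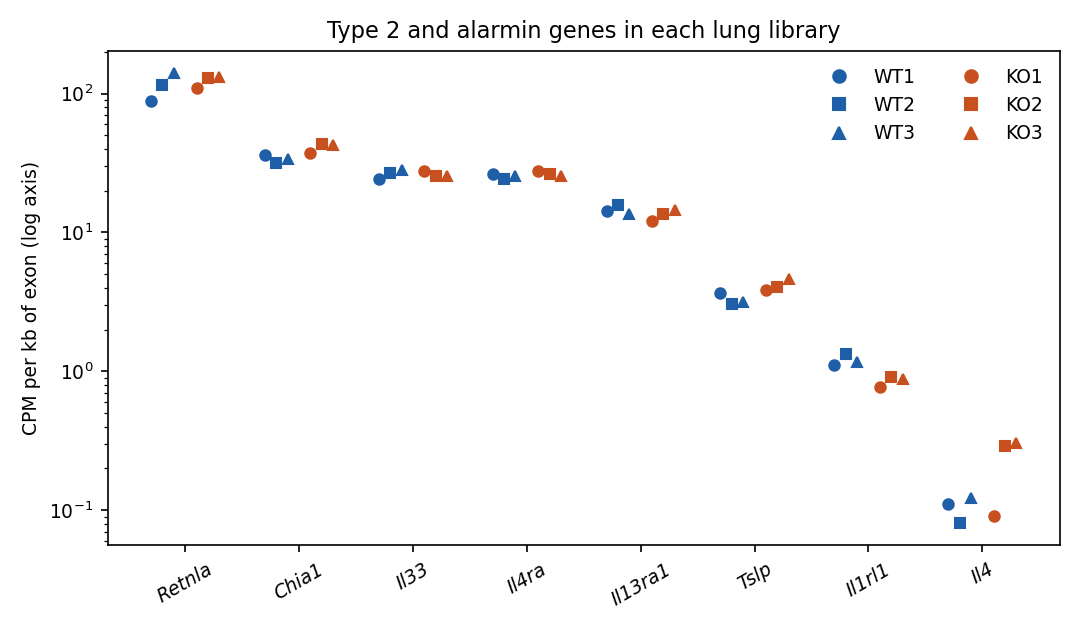
Level of the 8 tested members in each library, as CPM per kb of exon on a log axis, with WT libraries in blue and KO libraries in orange. Levels span from Retnla at 117 CPM per kb to Il4 at 0.141 CPM per kb in the mean, and the genotypes separate only for Chia1, Tslp and Il1rl1; Il25 and Il13 had counts of 0 in some libraries and are not drawn.

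KO was then compared with WT over all genes with the edgeR quasi-likelihood test, and 8 of the 10 members passed the filter on low counts. With a threshold of 0.05 on the adjusted p, 0 of the 8 were called, against 2.28% of the 18660 genes tested. Without adjustment the threshold was met by 2 members, Il1rl1 and Chia1, which is 25% of those tested, and 27.3% of all genes reached that level. The libraries of the genotypes did not overlap for 3 members (37.5%), and for 40.8% of all tested genes. By the estimate 6 members were higher and 2 lower in KO, where 9732 of the 18660 genes were higher, and the median log2 fold change was 0.08 beside 0.02 over all tested genes.

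**Figure D2:**
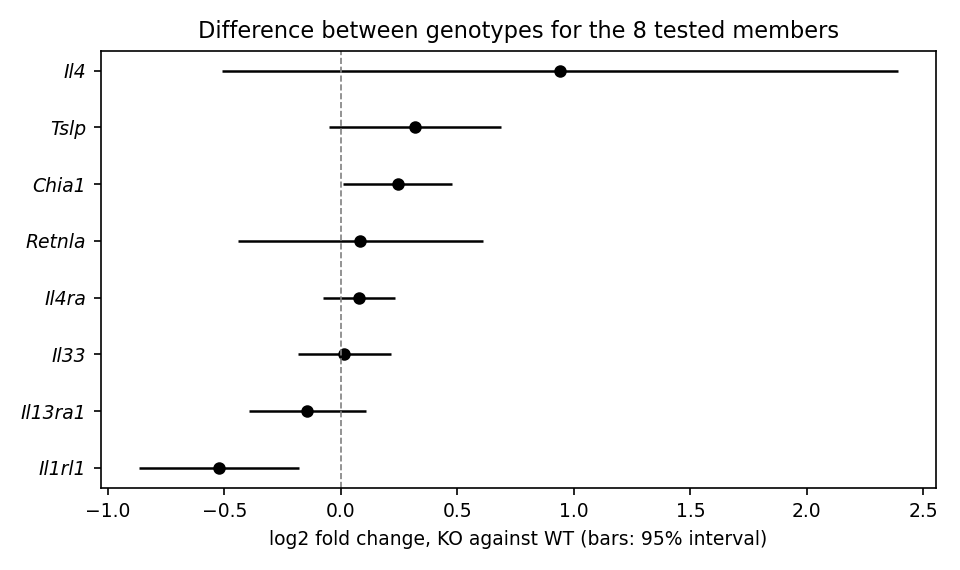
Log2 fold change of KO against WT for the 8 tested members (points) with 95% intervals from the edgeR fit (bars). The interval leaves out 0 for Il1rl1 (-0.87 to -0.18) and Chia1 (0.01 to 0.48) before adjustment, and it is widest for Il4 (-0.51 to 2.39).

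Of the alarmins, Il33 (chromosome 19, 29925114 to 29960718, plus strand), a nuclear cytokine stored in barrier cells, did not separate the genotypes. It was at 69.7, 77.4 and 80.9 CPM in WT1 to WT3 and at 79.8, 73.3 and 73.2 CPM in KO1 to KO3. The KO values lay inside the WT range. The log2 fold change was 0.01 (SE 0.0786, edgeR adjusted p 0.925), and the 95% interval of the KO to WT ratio, 0.879 to 1.16, bounds any difference in these samples.

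Tslp, on chromosome 18, encodes a cytokine of epithelium and fibroblasts that acts on dendritic cells, ILC2 and basophils. It was at 4.88, 4.06 and 4.19 CPM in WT1 to WT3 and at 5.10, 5.37 and 6.20 CPM in KO1 to KO3, so every KO library was above every WT library. The gap between WT1 and KO1 was small beside the spread, and the log2 fold change of 0.32 (SE 0.144) did not pass (edgeR adjusted p 0.233). KO2 and KO3, which differed little at most genes, were 5.37 and 6.20 CPM here. Of the libraries with squamous epithelium transcripts, WT3 lay between the other WT values and KO1 was the lowest KO value.

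Il25 (chromosome 14, 54932695 to 54935837), the alarmin of tuft cells, had 2 counts in WT3, 2 in KO1 and 0 in the others. A count of 0 allows up to 3 counts, which is at most 0.05 CPM in WT and 0.0514 CPM in KO, so a difference was not detectable at this depth. Tuft cell genes were measured beside it: 5 of 6 were tested, 0 were called, and the list summed to 14.0 to 16.5 CPM in WT and 13.2 to 15.2 CPM in KO. Dclk1 made up most of that sum. Of the 5 tested, 4 were below 0 by the estimate, among them Trpm5 (log2 fold change -1.14, edgeR adjusted p 0.203) and Sh2d6 (-0.76, adjusted p 0.143). Both were named after their values were seen. They were lower in every KO than in every WT library, as were 20.7% of all tested genes.

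Among the receptor genes, Il1rl1 (chromosome 1, 40429570 to 40465415, plus strand) had the smallest p of the members. It encodes the membrane receptor of IL-33 and, from another transcript, its soluble decoy, which counts per gene do not separate. It was at 7.69, 9.12 and 8.04 CPM in WT1 to WT3 and at 5.30, 6.24 and 6.10 CPM in KO1 to KO3. Every KO library was below every WT library, with 334 to 387 counts against 482 to 641. WT averaged 8.28 ± 0.748 CPM (SD, n = 3) and KO averaged 5.73 ± 0.612 CPM (SD, n = 2), a KO to WT ratio of 0.695 with a 95% interval of 0.548 to 0.882. The log2 fold change of -0.52 (SE 0.134) had an edgeR p of 0.0108 before adjustment and 0.0897 after it, and 12.1% of tested genes had a smaller p. It did not pass the threshold.

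The call on Il1rl1 depended on how KO2 and KO3 were counted and on the tool. With the 6 libraries kept separate, which treats KO2 and KO3 as independent mice, the log2 fold change was -0.49 and the edgeR adjusted p 0.0307, in a fit that called 18.9% of genes. DESeq2 gave -0.52 (adjusted p 0.00436) and called 22.3% of genes. The direction was the same under all 17 alternatives, from -0.58 to -0.42, and the adjusted p ranged from 0.00436 to 0.796.

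**Figure D3:**
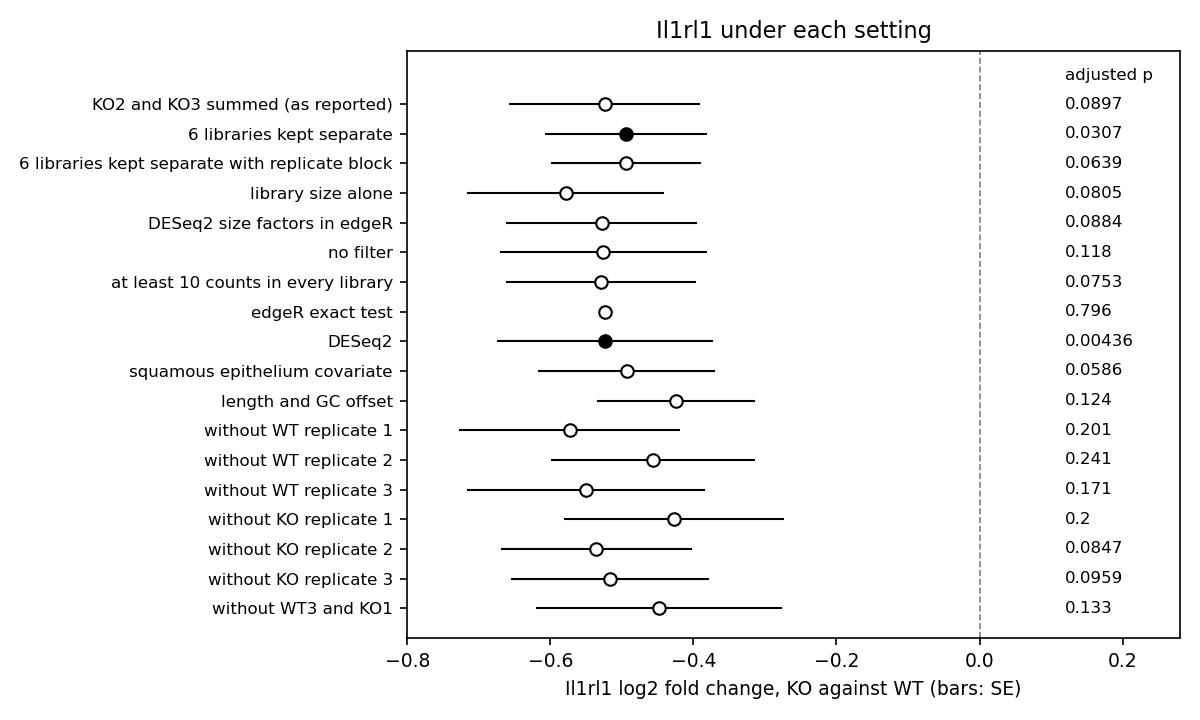
Log2 fold change of Il1rl1, KO against WT, as reported and under each alternative setting (points) with its SE (bars; the exact test gives none) and adjusted p at the right. All 18 estimates lie between -0.58 and -0.42, and the filled points mark the 2 settings with an adjusted p of at most 0.05.

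Mast cells are a main site of ST2, and a list of their genes was read in the same libraries. Of 8 listed mast cell genes, all tested, 3 were called lower and 0 higher, where 0.906% of all tested genes were called lower. The called genes encode granule proteases. Cpa3, carboxypeptidase A3, fell from a WT mean of 3.03 ± 1.07 CPM (SD, n = 3) to 0.546 ± 0.0317 CPM (SD, n = 2), with a log2 fold change of -2.46 (SE 0.355, edgeR adjusted p 0.0474). Mcpt4, a chymase, fell from 3.72 to 0.804 CPM (log2 fold change -2.20, adjusted p 0.0446), and Tpsb2, a tryptase, fell from 4.02 to 0.903 CPM (-2.14, adjusted p 0.0446). Without WT1, WT2 or WT3 no gene of the transcriptome was called, and these 3 had adjusted p values of 0.123 to 0.189. Without KO1, where the sum of KO2 and KO3 is the only KO sample and is assumed to vary as the WT samples do, they were at 0.0881 to 0.105. They were at 0.0812 with an offset for exon length and GC content, and without KO3 Cpa3 was at 0.0511. Their log2 fold changes stayed between -2.67 and -1.99 whichever single library was left out.

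The most abundant genes of that list were not lower to this degree. Kit, a growth factor receptor also found outside mast cells, was at 225 to 257 CPM in WT and 223 to 229 CPM in KO (adjusted p 0.464). Hdc, histidine decarboxylase, was at 84.7 to 88.3 CPM in WT and 98.9 to 108 CPM in KO (log2 fold change 0.26, adjusted p 0.0704). The whole list therefore summed to 329 to 354 CPM in WT and 332 to 338 CPM in KO. Without these 2 genes, a subset taken after the values were seen and not tested, the sum was 12.3, 19.6 and 15.6 CPM in WT1 to WT3 and 4.05, 4.75 and 4.76 CPM in KO1 to KO3. None of the 8 genes was at 0. In bulk tissue, fewer cells of a type and less RNA per cell cannot be told apart, and the part of mast cells in the lower Il1rl1 values was not tested.

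Other cells that carry ST2 were listed as well. Of the 9 ILC2 genes, all tested, 0 were called, and by the estimate 3 were higher and 6 lower. An unadjusted edgeR p of at most 0.05 was reached by 2, and by 27.3% of all tested genes. The list summed to 91.6 to 97.6 CPM in WT and 88.3 to 95.3 CPM in KO. Rora was the largest part of that sum, at 43.7 to 53.2 CPM. The 4 basophil genes, all tested, were lower by the estimate and 0 were called. They summed to 1.35 to 1.44 CPM in WT and 0.483 to 0.794 CPM in KO, so that all KO libraries were below all WT libraries. Of all tested genes, taken singly, 20.7% were lower in this way. Of the 6 T cell genes 0 were called.

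**Figure D4:**
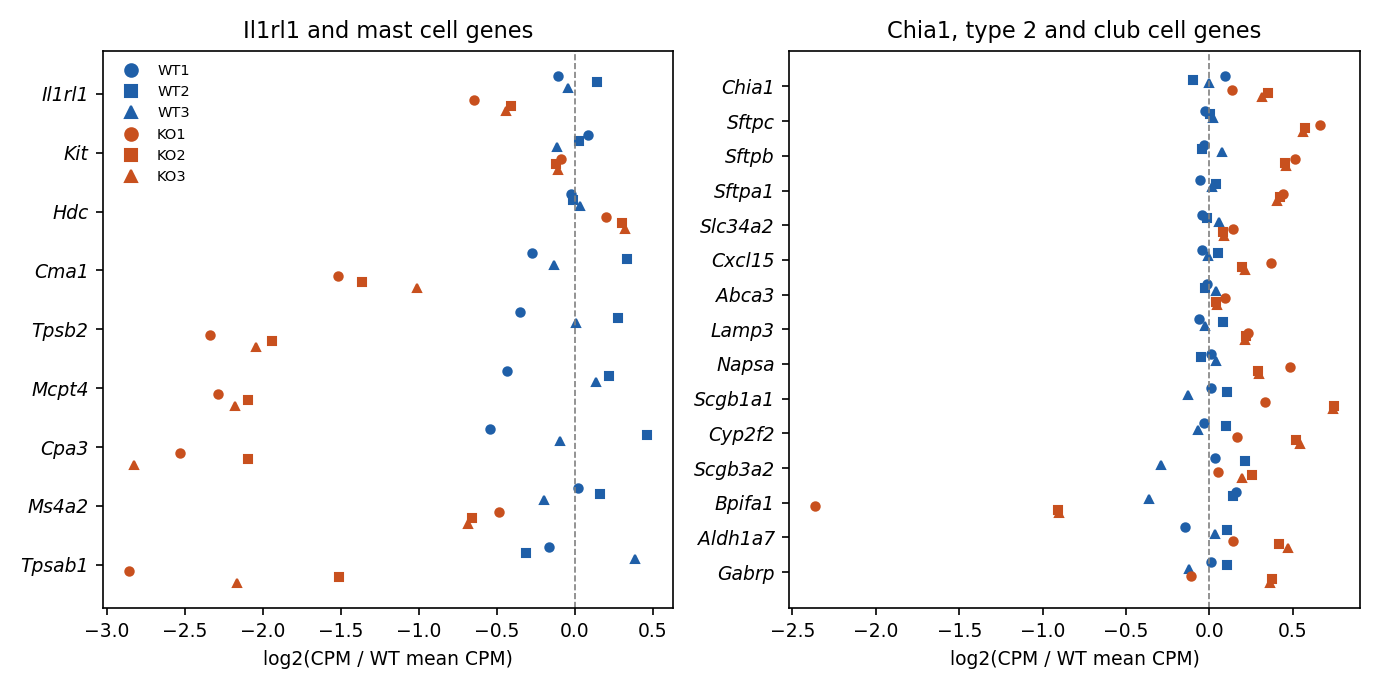
Each library's CPM relative to the WT mean on a log2 scale, with WT libraries in blue and KO libraries in orange. On the left, Il1rl1 is set beside the 8 mast cell genes, of which 3 were called lower in KO; on the right, Chia1 is set beside the alveolar type 2 and club cell genes, of which Sftpc, Sftpb and Sftpa1 were called higher.

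Il4ra (chromosome 7, 125552120 to 125579474, plus strand), the shared signalling chain of the IL-4 and IL-13 receptors, was the member with the most counts. It was at 158, 146 and 152 CPM in WT1 to WT3 and at 165, 158 and 152 CPM in KO1 to KO3, and the groups overlapped. The log2 fold change was 0.08 (SE 0.0611, edgeR adjusted p 0.464), with a 95% interval of the ratio of 0.948 to 1.18. Without KO1 it was 0.03. The antisense gene Gm44876 shares 571 exon bases with Il4ra, and the deposited counts hold no row under that symbol. Reads of the pair cannot be told apart if counting ignored strand. Il13ra1 (chromosome X, 36112110 to 36171259, plus strand) binds IL-13 and joins Il4ra. It was at 52.9, 58.2 and 50.1 CPM in WT1 to WT3 and at 44.8, 50.2 and 54.1 CPM in KO1 to KO3. KO1 was the lowest library and KO3 lay inside the WT range, and the log2 fold change of -0.14 (SE 0.0991, adjusted p 0.412) was within the spread. Without KO1 it was -0.05. The 95% interval of its ratio was 0.760 to 1.08.

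The cytokine genes lie side by side on the minus strand of chromosome 11, 44.9 Mb from Zpbp2 (Il4 from 53602982 to 53618669 and Il13 from 53631324 to 53634702). Il4, the cytokine of T helper 2 cells and basophils, had 10, 7 and 9 counts in WT1 to WT3 and 7, 22 and 22 counts in KO1 to KO3. KO1 was inside the WT range, and the higher values were those of the summed pair KO2 and KO3. The log2 fold change of 0.94 (SE 0.569) did not pass (edgeR adjusted p 0.352). Without KO1 it was 1.495 (adjusted p 0.144), with 1 KO sample left and the spread taken from WT alone. Il13, which drives mucus production and airway hyperreactivity, had 0, 4 and 2 counts in WT1 to WT3 and 0, 1 and 3 in KO1 to KO3. It was not tested, and no difference was detectable at this depth.

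Chia1 (chromosome 3, 106113229 to 106132120, plus strand) encodes a chitinase that degrades inhaled chitin. It was at 69.1, 60.6 and 64.6 CPM in WT1 to WT3 and at 71.3, 82.8 and 80.6 CPM in KO1 to KO3. No KO value reached down to the WT values, though KO1 exceeded WT1 only slightly. The WT mean was 64.8 ± 4.25 CPM (SD, n = 3) and the KO mean 76.5 ± 7.32 CPM (SD, n = 2). The log2 fold change of 0.24 (SE 0.0914) had an edgeR p of 0.0430 before adjustment and 0.170 after it, so it did not pass. With an offset for exon length and GC content it was 0.12 (adjusted p 0.508).

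The epithelial cells that make Chia1 were compared in the same libraries. Of 8 alveolar type 2 cell genes, all tested, 3 were called higher, where 1.38% of all tested genes were called higher. The 3 encode surfactant proteins. Sftpc rose from a WT mean of 12336 ± 214 CPM (SD, n = 3) to a KO mean of 18913 ± 882 CPM (SD, n = 2), with a log2 fold change of 0.62 (adjusted p 0.0446), Sftpb by 0.49 and Sftpa1 by 0.43. These calls too were lost without WT1, WT2, WT3 or KO1, with the edgeR exact test (adjusted p 0.373 to 0.697) and with no filter (0.053 to 0.0644). With the length and GC offset Sftpc was at 0.34, Sftpb at 0.25 and Sftpa1 at 0.40 (adjusted p 0.0812, 0.0981 and 0.0812). The list summed to 22139.9 to 23147 CPM in WT and 31131.5 to 33018 CPM in KO. Of 6 club cell genes, which include the secretoglobin Scgb1a1, 0 were called, and the list summed to 28262 to 33366 CPM in WT and 37092 to 49394 CPM in KO. Scgb1a1 made up most of that sum, and Bpifa1 of the same list was at 1069 CPM in WT and 389 CPM in KO in the mean (log2 fold change -1.45, adjusted p 0.133; named after its values were seen). None of these genes was at 0. The part of these cells in the level of Chia1 was not tested.

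Retnla (chromosome 16, 48842551 to 48844461, plus strand), also known as Fizz1, marks macrophages activated by IL-4 and is made by epithelium and fat as well. It was at 52.7, 68.7 and 83.9 CPM in WT1 to WT3 and at 65.9, 77.9 and 79.2 CPM in KO1 to KO3. The WT libraries alone spanned the KO values. The log2 fold change was 0.08 (SE 0.206, edgeR adjusted p 0.828), and its sign turned without WT1 (-0.07) and with the length and GC correction (-0.15). Of 12 fat cell genes, all below 0 by the estimate, 4 were called lower (0 without WT1, WT2 or WT3), where 0.906% of all tested genes were, and the list summed to 1337 to 1989.8 CPM in WT and 413 to 485 CPM in KO. Retn, the resistin gene of that list, chosen after its values were seen, was at 15.9 to 22.4 CPM in WT and 3.08 to 9.34 CPM in KO (log2 fold change -1.61, adjusted p 0.120).

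The rest of the receptor machinery was read from a list of 21 partners and signalling genes, of which 20 were tested. None was called. By the estimate 5 were higher and 15 lower, where 9732 of the 18660 tested genes were higher. The median log2 fold change was -0.07 beside 0.02 over all tested genes. An unadjusted edgeR p of at most 0.05 was reached by 6 of the 20, and by 27.3% of all tested genes. Il1rap, the co-receptor of ST2, was at 20.4 to 22.9 CPM in WT and 16.4 to 19.5 CPM in KO (log2 fold change -0.27, edgeR adjusted p 0.184). Crlf2, the TSLP receptor, was at 16.8 to 20.6 CPM in WT and 22.8 to 25.9 CPM in KO (0.38, adjusted p 0.107). Both were named for their role after their values were seen, and with the length and GC correction they were at -0.08 and 0.0016.

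The kinases Jak1 and Jak2 were at 295 and 88.3 CPM in WT and at 253 and 76.9 CPM in KO, with log2 fold changes of -0.22 and -0.19 and edgeR adjusted p values of 0.0871 and 0.0854. With the length and GC offset Jak1 was at -0.13 (adjusted p 0.272). Stat6, which carries the IL-4 and IL-13 signal, averaged 201 ± 3.98 CPM (SD, n = 3) in WT, against 196 ± 2.22 CPM (SD, n = 2) for KO (adjusted p 0.730). Irak1, a kinase below ST2, was at -0.09 on the log2 scale (adjusted p 0.393), and at -0.03 without KO1. Socs3, an inhibitor of cytokine signalling, was at 36.5 to 43.0 CPM in WT and 47.9 to 56.1 CPM in KO (0.39, adjusted p 0.0903), and at 0.22 on the log2 scale with that offset (adjusted p 0.255). Socs3 also responds to handling, and 10 immediate early genes summed to 779 to 1132 CPM in WT and 1608 to 2984 CPM in KO. The part of handling in its level was not tested.

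**Figure D5:**
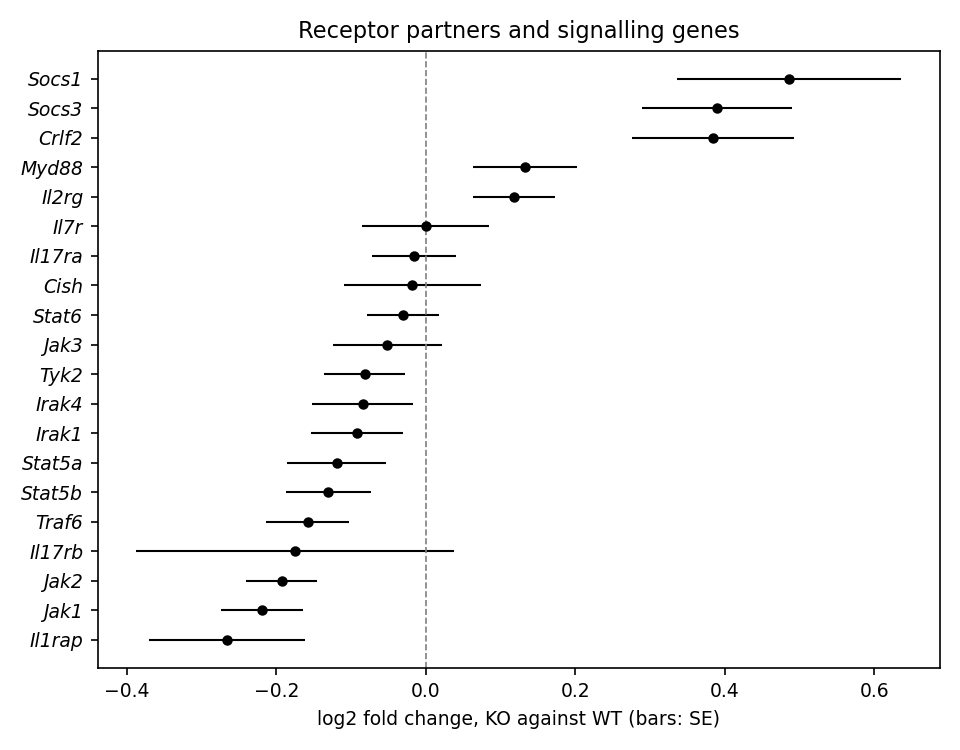
Log2 fold change of KO against WT for the 20 tested receptor partners and signalling genes (points) with the SE of the edgeR fit (bars). Estimates run from Il1rap at -0.27 to Socs1 at 0.49, and none passed the adjusted threshold.

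Of 8 other type 2 cytokines listed, 4 were tested and 0 called. Il3, Il9 and Il31 had 0 counts in every library, and the other 5 were detected in all 6. Areg, amphiregulin, which ILC2 and epithelium make, was at 4.03, 4.996 and 5.50 CPM in WT1 to WT3 and at 7.05, 6.67 and 8.34 CPM in KO1 to KO3. The estimate was 0.59 on the log2 scale (edgeR adjusted p 0.0993). Csf2, the gene of GM-CSF, was at 1.75 to 2.16 CPM in WT and 2.87 to 3.17 CPM in KO (0.66, adjusted p 0.0833). Il6, with 0.128 to 0.300 CPM in WT and 0.159 to 0.394 CPM in KO, overlapped (adjusted p 0.818).

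Of 27 type 2 effector genes 24 were tested, with a median log2 fold change of -0.21 beside 0.02 over all genes. In this list 1 gene was called, where 2.28% of all tested genes were. Mrc1, the macrophage mannose receptor, fell from a WT mean of 53.1 ± 4.37 CPM (SD, n = 3) to 35.9 ± 0.579 CPM (SD, n = 2), with a log2 fold change of -0.56 (SE 0.0801, edgeR adjusted p 0.0474). The call was lost without WT1, WT2, WT3 or KO1, at adjusted p values of 0.103 to 0.189, with the exact test (0.105) and with the length and GC offset (0.0826), while the log2 fold change stayed between -0.62 and -0.52 with single libraries left out. Ccl24, an eotaxin that draws eosinophils, was at 2.36, 2.75 and 3.55 CPM in WT1 to WT3 and at 1.44, 1.34 and 0.994 CPM in KO1 to KO3 (-1.14, adjusted p 0.0659). Chil1, a chitinase-like protein of the same family as Chia1, was at 687 to 768 CPM in WT and 918 to 1013 CPM in KO (0.43, adjusted p 0.0563). The macrophage chitinase-like gene Chil3 and the matrix gene Postn overlapped between the genotypes (log2 fold changes -0.25 and -0.17, adjusted p 0.329 and 0.428). Without KO1 they were at -0.41 and -0.38. Postn passed without WT3 and KO1 (-0.35, adjusted p 0.0462) and was at -9.0e-05 with the length and GC offset.

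For the 7 members with a mean of at least 1 CPM, tested genes whose log2 level followed the member most closely over the 6 libraries were listed as a description, with Pearson's r. They were Prex2 (0.9995) for Il1rl1, Bnip1 (0.995) and Gm26626 (0.997) for Chia1, and Rab33b (0.996) and G6b (0.995) for Tslp. For Il33 they were Dlgap3 (0.995) and Sqle (0.992), for Il4ra Gm6517 (0.987) and Slc52a2 (0.987), for Il13ra1 Vmn2r87 (0.996) and Zfp619 (0.992), and for Retnla Pqlc2 (0.987) and Errfi1 (0.983). The limit of 1 CPM applied to the members and not to these genes. Vmn2r87, Gm26626, Dlgap3 and Gm6517 had means of only 0.121, 0.150, 0.246 and 0.777 CPM. The 6 points share genotype, depth and the squamous libraries, and KO2 and KO3 among them count as 1 sample in the tests. Such values are common: 1505 genes had r of at least 0.9 with Il1rl1 and 62 with Retnla.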

How the data were processed

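Lung RNA of 6 mice was sequenced, 3 WT and 3 KO, all at ZT7. The deposited table holds raw counts per gene. Per the study's methods and the submitters' processing notes, the authors trimmed reads (Trimmomatic 0.36), aligned them to GRCm38 (mm10) with STAR 2.5.3a and counted them with HTSeq 0.6.0, and Picard 2.9.0 is listed. The annotation release and strand use are not given in the sources used here.

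The tests used edgeR 4.0.16 under R 4.3.3 (filterByExpr, TMM, glmQLFit and glmQLFTest, two-sided), with Benjamini-Hochberg adjustment over all tested genes. DESeq2 1.42.0 was an alternative. KO2 and KO3 were summed to 1 sample because they differed by close to counting noise, a choice made with the data known. P-values set each difference against the spread estimated between these samples only. CPM uses TMM-scaled library sizes over the 6 libraries. The mean of KO2 and KO3 is 1 replicate in each mean ± SD. SEs come from the estimate and its F statistic. Intervals and floors (3 counts) cover counting error or the fit only. Positions and exon lengths come from GENCODE M21 on GRCm38, which held 97.5% of the identifiers. Gene fits were tested on simulated data. The members and lists were chosen with earlier results of these data known. Named genes were all members, Zpbp2, called genes of the pathway lists with the 3 most abundant and the 3 of smallest p in each, leading markers, and the 2 genes most like each member. 1 of these is not reported here. Scaling, filtering, tools, a squamous covariate, length and GC correction, replicate block and single libraries were varied.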

Additional observations from a re-analysis of the deposited data

How the results depend on the processing

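The count of called members was 0 as reported and 1 (Il1rl1) with the 6 libraries kept separate and with DESeq2, and it was 0 when each library was left out in turn (0 to 0). Over all genes 426 were called, and 3402 with the 6 libraries kept separate, 937 where each library had to hold 10 counts or more, 209 with the edgeR exact test, 3908 with DESeq2, 2177 with the squamous epithelium covariate, 3 with the length and GC offset and 2256 without WT3 and KO1, a setting chosen after the data were seen. Leaving out single libraries gave 0 to 418 calls: 0 without WT1, WT2 or WT3 and 17 without KO1. In the pathway lists 1 gene was called, and 11 with separate libraries, 12 with DESeq2, 4 with the squamous covariate, 9 without WT3 and KO1, 0 with the exact test and the length and GC offset, and 0 to 1 with single libraries left out. Zpbp2 stayed lower in the 11 alternatives that gave it a value, at log2 fold changes of -7.43 to -4.33, and passed with the exact test (-4.81), the squamous covariate (-4.76) and without WT3 and KO1 (-7.43), with -7.05 to -4.33 without WT3, KO1, KO2 or KO3 in turn. The values without KO1 are fitted against KO libraries at 0 counts, so their size depends on the prior count. It has no value without WT1 or WT2, with separate libraries, the block, the minimum of 10 counts or DESeq2. Settings without KO1 leave 1 KO sample, which is assumed to vary as the WT samples do. The cause of these shifts was not tested.

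Il33, near 0 throughout, changed sign with separate libraries (-0.0107), the replicate block (-0.0092), library size alone (-0.0394), the squamous covariate (-0.0139) and without WT3 and KO1 (-0.0094), and ranged from -0.0559 to 0.0574 when single libraries were left out. Retnla turned with the length and GC offset (-0.15) and ranged from -0.0712 to 0.25 with single libraries left out, and it was 0.37 without WT3 and KO1. Il6 ranged from -0.0668 to 0.65 with single libraries left out and was 0.72 without WT3 and KO1, and Kit was 0.0258 with the length and GC offset. Tslp, Il1rl1, Il4ra, Il13ra1, Il4 and Chia1 kept their direction in every alternative that tested them. Replicate numbers did not pair the libraries: same-numbered libraries deviated from their group means with correlations of -0.683, 0.800 and -0.852 over 15152 genes. With the replicate number as a block 1157 genes and 0 members were called, and in the pathway lists 1. Depth limits Il25, Il13 and Il4, which had at most 22 counts in a library.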

Other observations

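Among cells that respond to type 2 signals, markers of macrophages and eosinophils were also read. Of 9 alveolar macrophage genes, all tested, 1 was called lower (Mrc1), where 0.906% of all tested genes were, and by the estimate 4 were higher and 5 lower. Besides Mrc1, the groups did not overlap for Krt79 (log2 fold change 0.31, edgeR adjusted p 0.0799), Fabp1 (0.43, 0.166) and Ear2 (-0.22, 0.123), named after their values were seen. Of all tested genes, 40.8% did not overlap, a share that also stands beside the genes without overlap below. The list summed to 275 to 333 CPM in WT and 262 to 279 CPM in KO. The 6 genes of interstitial macrophages, among them the complement genes C1qa, C1qb and C1qc, had 0 calls and sums of 414 to 462 CPM in WT and 394 to 405 CPM in KO. Lyve1 and the C1q genes made up most of that sum and overlapped, while Cd163 was at -0.89 on the log2 scale (edgeR adjusted p 0.0514) and Folr2 at -0.48 (0.173), both without overlap of the genotypes and named after their values were seen. Eosinophil genes were scarce, at 1.76 to 2.03 CPM in WT and 0.936 to 1.92 CPM in KO, and 0 of the 3 tested were called. The groups did not overlap for Il5ra (log2 fold change -1.46, edgeR adjusted p 0.0553), and Prg2 was at 0.53, both named after their values were seen. Adventitial fibroblast genes, of a cell type that makes Il33 and Tslp, had 0 calls among 8, and mesothelial genes 0 among 5. By the estimate 4 of the 8 fibroblast genes were higher and 4 lower, with a median log2 fold change of 8e-04. Pi16 (-0.83, edgeR adjusted p 0.0707), Pdgfra (-0.37, 0.0862) and Col14a1 (-0.29, 0.0671) did not overlap between the genotypes, and neither did 40.8% of all tested genes. These 3 were named after their values were seen, and the 4 fibroblast genes above 0 overlapped.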
